A study of Mus musculus with 48 samples.

Results

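Cfd, Aqp7, Fabp4 and Adig are 4 of the 29221 genes in the joined count tables of a mouse liver RNA-seq study. They were taken by name as genes best known from fat cells, and they were chosen by an earlier analysis of the same libraries in which adipocyte-type genes stood higher on fattening diets and lower in male livers labelled as lacking hepatocyte PPARγ. Whole-liver RNA was measured in 48 mice, each a separate animal per the labels, in 10 groups. All mice carried a floxed Pparg gene. After 16 weeks on diet they received AAV8-TBG-Cre, a virus in which a hepatocyte promoter drives Cre recombinase (labelled knockout), or AAV8-TBG-null, the same virus without Cre (control). Some females ate low fat (LF) chow for 34 weeks, and mice of both sexes ate high fat (HF) chow for 34 weeks. The HFCF mice changed from HF chow after 18 weeks to food also rich in cholesterol and fructose, which they ate for 16 weeks. Each of the 6 female groups held 4 livers and each of the 4 male groups held 6. The labels call the LF livers healthy, the HF livers steatotic and the HFCF livers steatohepatitic. Libraries held 15338239 to 22072884 reads on genes.

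White fat cells store triglyceride in lipid droplets and release it as fatty acids and glycerol. PPARγ, a nuclear receptor that pairs with RXR and binds direct repeats in DNA, is the main regulator of that programme, and in livers with steatosis it is known to induce lipid droplet genes in hepatocytes. Cfd encodes adipsin (complement factor D), a secreted serine protease that cleaves factor B in the alternative complement pathway. Aqp7 encodes a membrane channel for water and glycerol that lets glycerol leave fat cells. Fabp4 encodes the fatty acid binding protein of adipocytes, which macrophages and capillary endothelium also make. Adig encodes adipogenin, a small membrane protein of fat cells.

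The name "switched on in fatty liver" was checked against the reads and fitted the 4 genes unequally. Cfd and Aqp7 were near 0 reads in LF livers, all of them female, and clearly present in male controls. No male ate LF chow, so sex and diet cannot be told apart in that contrast. In female controls on LF, HF and HFCF, Cfd summed to 3, 9 and 42 reads and Aqp7 to 8, 50 and 176. Fabp4 had reads in all 48 libraries, LF livers included, at 39 to 746 reads per library. Adig never passed 8 reads in a library. Pparg was counted first as a check of the genotype label. It averaged 34.2 ± 3.94 CPM (reads per 1e6 reads of the library after TMM scaling; SD, n = 6) in male HF controls and 41.1 ± 14.05 CPM in male HF labelled knockouts. It averaged 32.3 ± 5.47 CPM in male HFCF controls and 56.3 ± 6.18 CPM in their labelled knockouts. The Pparg count was thus not lower in the male labelled knockouts. On HFCF it was called higher there, in 12 of 12 fits that left out a library and with a replicate block (adjusted p = 0.00698, edgeR). In female HFCF labelled knockouts it was also called higher, a call kept in 1 of 8 such fits. Since the Pparg count covers the whole gene, including exons a Cre deletion may leave, it does not settle the label. The groups are therefore called labelled knockout throughout.

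Stretches just upstream of the start are shown for the members with an entry in the set of promoter sequences used here. Cfd and Aqp7 were both lower in male labelled knockouts, and PPARγ with RXR binds direct repeats of AGGTCA with 1 base between them. The motif searched was AGGTCANAGGTCA on both strands, and the best window is in capitals. Sequences are from RefSeq, GRCm38.p6, 5′ to 3′ on the strand of the gene, and cover 250 bases. They are Cfd (chr10:79890603-79890852, plus strand), Aqp7 (chr4:41048137-41048386, minus strand) and Adig (chr2:158502362-158502611, plus strand). Fabp4 is named only.
Cfd: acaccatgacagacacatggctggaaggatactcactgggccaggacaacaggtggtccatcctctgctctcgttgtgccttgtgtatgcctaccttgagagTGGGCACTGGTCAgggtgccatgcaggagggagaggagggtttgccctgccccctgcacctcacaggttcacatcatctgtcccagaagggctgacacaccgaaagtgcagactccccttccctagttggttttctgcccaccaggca
Aqp7: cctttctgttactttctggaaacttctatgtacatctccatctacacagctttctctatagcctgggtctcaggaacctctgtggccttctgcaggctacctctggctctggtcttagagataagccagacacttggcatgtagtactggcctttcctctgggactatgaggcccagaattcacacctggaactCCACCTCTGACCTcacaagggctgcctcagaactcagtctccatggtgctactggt
Adig: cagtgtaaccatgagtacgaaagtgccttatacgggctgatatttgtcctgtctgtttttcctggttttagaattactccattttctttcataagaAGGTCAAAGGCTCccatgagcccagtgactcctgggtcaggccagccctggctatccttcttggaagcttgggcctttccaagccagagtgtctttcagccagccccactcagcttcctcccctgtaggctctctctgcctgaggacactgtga
The best window matched 10 of the 12 fixed letters upstream of Aqp7, on the opposite strand, starting 56 bases before the start. RefSeq gives another Aqp7 start, not shown, from which the same match lies 230 bases upstream. A match that good or better was present in 3.24% of 32851 windows of that length. Upstream of Cfd and Adig the best window matched 9 of 12 letters, at 148 and 154 bases before the start, and 21.3% of all windows held as many. These are descriptions of letters, not of binding.

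None of the 4 genes overlaps another gene in the deposited annotation. Neighbours were sought only among the joined genes, where the symbols Pmp2 and Fabp9 were not found, so a closer gene may lie between. Cfd (ENSMUSG00000061780) lies on GRCm38 chromosome 10, 79890853 to 79892655, plus strand, between Elane, which encodes neutrophil elastase, and Med16, a Mediator subunit. Aqp7 (ENSMUSG00000028427) lies on chromosome 4, 41033074 to 41048139, minus strand, beside Nfx1 and Aqp3. Fabp4 (ENSMUSG00000062515) lies on chromosome 3, 10204088 to 10208576, minus strand. Among the joined genes its nearest protein-coding neighbours were Gm9833 and Fabp12. Adig (ENSMUSG00000044405) lies on chromosome 2, 158502612 to 158508198, plus strand, between Ralgapb and Arhgap40. For the neighbours, in male HF controls and labelled knockouts Med16 averaged 30.0 and 29.4 CPM, Elane 0.131 and 0.189 CPM and Aqp3 0.0274 and 0.0640 CPM.

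Cfd was highest in male livers with control virus. In male HF controls it had 28 reads at the lowest, 66.5 at the median and 170 at the highest, and in male HFCF controls 52, 163 and 326. In male HF labelled knockouts the 6 libraries held 0 or 1 read each, and in male HFCF labelled knockouts 0 to 5. Every male control library therefore stood above every male labelled knockout library. As CPM, Cfd averaged 4.27 ± 2.26 against 0.0313 ± 0.0345 on HF and 9.36 ± 5.78 against 0.104 ± 0.120 on HFCF (SD, n = 6 each). From summed reads, 476 against 3 on HF and 1038 against 12 on HFCF, the ratios were 140 (95% exact interval 47.6 to 682) and 86.1 (49.1 to 167). These intervals cover counting error only. Both contrasts helped to choose the gene, so they carry no test; 18.5% of the 14041 genes tested on HF and 2.21% of the 14685 tested on HFCF were called there (edgeR, adjusted p under 0.05). The HFCF count, 324 genes, was 1052 without male HFCF control replicate 1 and 185 to 388 without any other library. In bulk liver, fewer cells of a type and less RNA per cell cannot be told apart.

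In females Cfd stayed low. The LF controls held 3, 0, 0 and 0 reads and the LF labelled knockouts 0, 0, 0 and 2. The HF controls held 6, 1, 2 and 0 reads, and the HF labelled knockouts held 0 in all 4 libraries, which allows up to 0.0436 CPM at 3 reads over the group. Only the HFCF controls held Cfd reads in all 4 female libraries, at 4, 2, 17 and 19, against 0, 1, 0 and 1 in the HFCF labelled knockouts. Those groups did not overlap, but Cfd fell to the low-count filter in that comparison and has no test there.

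The sexes were compared in controls, a contrast that did not choose the genes. Male HF controls stood 4.90 ± 0.64 (log2, SE) above female HF controls, with adjusted p = 0.000613 by edgeR's quasi-likelihood test. On HFCF the difference was 4.09 ± 0.62, adjusted p = 0.00359 by edgeR. No male control library overlapped a female one on either diet, and 18.1% of all genes were called between the sexes on HF and 2.63% on HFCF. Without female HF control replicate 1 the HF count rose from 2624 genes to 5053. Males and females come from different runs of animal numbers, so sex and anything else that differed between those runs cannot be told apart. Cfd passed the low-count filter here only through the male group, and all male and female control libraries also took part in contrasts that chose the genes. These p-values, and all others given for the 4 genes, are therefore not free of the choice and are not independent evidence.

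**Figure D1:**
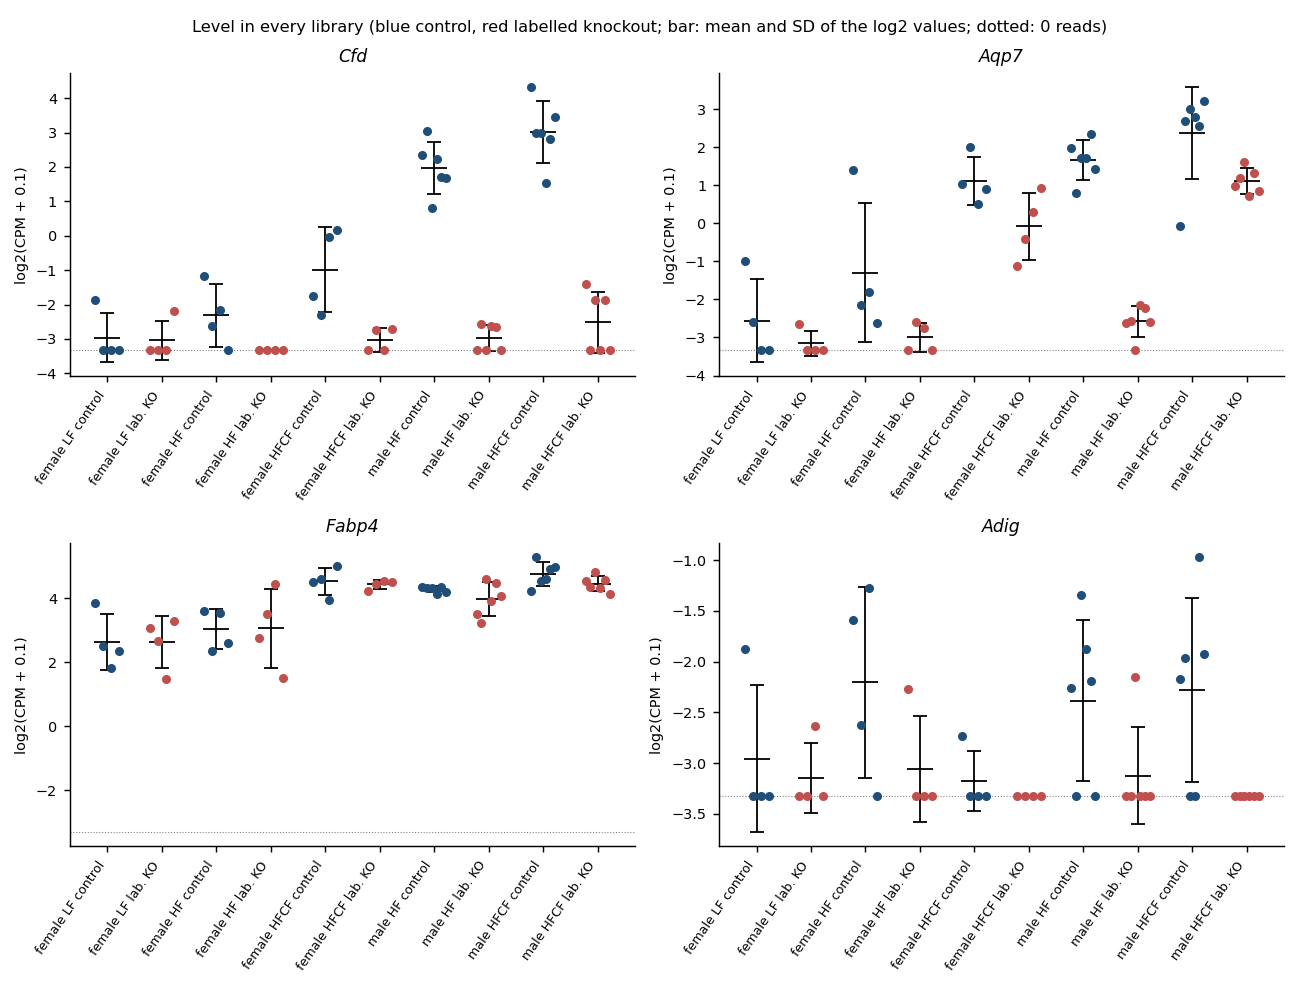
Level of each gene in every library as log2(CPM + 0.1), by group, with blue points for controls, red points for labelled knockouts, and bars for the mean and SD of the log2 values. Cfd and Aqp7 are high in male controls, Fabp4 is present in every group and Adig is near the dotted line of 0 reads.

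Aqp7 was higher on HFCF than on HF in male labelled knockouts, where Cfd stayed at a few reads. Male HF labelled knockouts held 0 to 2 reads per library, with a median of 1, and male HFCF labelled knockouts held 28 to 68, with a median of 38. The groups did not overlap. The rise was 4.73 ± 0.36 (log2, SE), with adjusted p = 6.36e-07 by edgeR. Aqp7 passed the filter only through the HFCF group, and the low HF libraries also took part in the contrast that chose it, so the p-value adds nothing to the reads. In this comparison 41.7% of all genes were called. Cfd in the same livers went from 0 to 1 read per library to 0 to 5, which is too few to pass the filter. In male controls Cfd was higher on HFCF than on HF by 1.12 ± 0.40 (log2, SE), which missed the threshold (adjusted p = 0.0552, edgeR) and passed it without HF control replicate 2 (adjusted p = 0.0275) or HFCF control replicate 4 (adjusted p = 0.0231).

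Male controls held more Aqp7 than labelled knockouts on both diets. The HF controls held 34, 55 and 84 reads (lowest, median, highest) and the HFCF controls 14, 125 and 179. The control libraries on HF were all above the labelled knockouts, at 3.24 ± 1.14 against 0.0728 ± 0.0449 CPM, a ratio of summed reads of 43.4 (20.8 to 109). On HFCF the means were 6.18 ± 2.87 and 2.12 ± 0.53 CPM, a ratio of 2.94 (2.54 to 3.41), and the groups overlapped through HFCF control replicate 1 alone, with 14 reads. That library held the most Cfd of all, 326 reads, and its macrophage markers summed to 558 CPM against 1176 to 1371 in the other 5. Without it the control mean was 7.24 CPM. The 2 diets differed by 0.95 ± 0.38 in male controls, which missed the threshold (adjusted p = 0.0811, edgeR) and passed it without that replicate (adjusted p = 0.000489); 22.3% of all genes were called in that comparison.

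In females Aqp7 had reads in all 8 HFCF libraries. LF controls held 7, 1, 0 and 0 reads and LF labelled knockouts 1, 0, 0 and 0. HF controls held 44, 2, 3 and 1 reads, so the group rests on replicate 1, and HF labelled knockouts held 0, 1, 1 and 0. HFCF controls held 39, 78, 26 and 33 reads and HFCF labelled knockouts 5, 13, 23 and 35. HF control replicate 1 also held 978 Cidec reads, against 102, 161 and 226 in the other 3, and the largest macrophage marker sum of its group, 674 CPM.

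The HFCF against HF change of Aqp7 in female controls was 1.59 ± 0.87 (log2, SE), adjusted p = 0.185 by edgeR. Without HF control replicate 1 it was 4.12, adjusted p = 0.000545 by edgeR. Aqp7 then passed the low-count filter only through the HFCF group, so that p-value adds nothing to the reads. With all groups in one fit the change was called with every library kept (1.59, adjusted p = 0.0385, edgeR). In the main fit of female controls 30.8% of all genes were called. In female labelled knockouts, where 14.5% of the genes tested were called, Aqp7 failed the low-count filter and has no test. The HFCF labelled knockouts lay below the HFCF controls by 1.12 ± 0.47 (log2, SE), which did not pass the test (adjusted p = 0.551, edgeR), where 0.0534% of genes were called. Male controls exceeded female controls by 2.11 ± 0.70 on HF (adjusted p = 0.0559, edgeR) and by 1.47 ± 0.48 on HFCF (adjusted p = 0.155). The first was called without female HF control replicate 1 (4.63, adjusted p = 4.03e-05, edgeR), without the low-count filter (adjusted p = 0.0399) and with all groups in one fit (adjusted p = 0.00888). Without that replicate Aqp7 passed the filter only through the male group. The second was called without male HFCF control replicate 1 (adjusted p = 0.00254) and by DESeq2's Wald test (adjusted p = 0.0405).

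Fabp4 was present in every group and was higher on HFCF than on HF in the controls of both sexes. LF controls held 248, 86, 57 and 91 reads and HF controls 206, 81, 185 and 97. HFCF controls held 458, 484, 302 and 597, so that every HFCF control stood above every HF control. The mean rose from 8.64 ± 3.61 to 23.6 ± 6.77 CPM (SD, n = 4), a change of 1.46 ± 0.31 (log2, SE) with adjusted p = 0.0104 by edgeR. In male controls Fabp4 rose from 304, 340 and 411 reads (lowest, median, highest) on HF to 304, 548 and 746 on HFCF, by 0.53 ± 0.14 with adjusted p = 0.0158 by edgeR. Both calls held with each library left out; the male call was lost with all 10 groups in one fit (adjusted p = 0.252) and the female one with a replicate block (adjusted p = 0.0971).

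In labelled knockouts the HFCF against HF change of Fabp4 did not pass the test in either sex, at 1.005 ± 0.457 in females (adjusted p = 0.169, edgeR) and 0.43 ± 0.19 in males (adjusted p = 0.0930). The female HF labelled knockouts held 125, 170, 448 and 39 reads. Replicate 3, with 448, also held neutrophil markers summing to 140 CPM against 1.68 to 3.71 in the other 3 libraries and 126 reads of Elane, beside 0 reads of Cfd. Without it the female change was 1.65, adjusted p = 0.0126. In males the change was called without HF labelled knockout replicate 3 (adjusted p = 0.0257) or replicate 5 (adjusted p = 0.0484).

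No difference in Fabp4 by labelled genotype passed the test in females. The differences were -0.06 ± 0.47 on LF, 0.33 ± 0.54 on HF and -0.11 ± 0.18 on HFCF (log2, SE), with adjusted p = 0.9996, 0.899 and 0.835 by edgeR. On LF and HF 0% of all genes were called: 0 of 14285 with 355 at an unadjusted p under 0.05, and 0 of 14128 with 1135, while DESeq2's Wald test called 8 and 61. In males the labelled knockouts averaged 16.5 ± 5.95 against 19.3 ± 1.18 CPM on HF and 22.04 ± 3.76 against 27.6 ± 7.28 CPM on HFCF, as a description. HF against LF in female labelled knockouts gave 0.67 ± 0.55 (adjusted p = 0.646, edgeR), where 0.155% of genes were called. Between the sexes Fabp4 was 1.16 ± 0.21 higher in male HF controls (adjusted p = 0.00388, edgeR), with no overlap, and 0.23 ± 0.21 higher in male HFCF controls (adjusted p = 0.700).

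Among the 2 contrasts of female controls that helped to choose the genes, HF against LF called 0.696% of genes and HFCF against LF 35.2%. Aqp7 averaged 0.117 ± 0.193 CPM on LF, 0.729 ± 1.21 on HF and 2.24 ± 1.15 on HFCF. Fabp4 averaged 7.07 ± 4.90, 8.64 ± 3.61 and 23.6 ± 6.77 CPM in the same order. Without LF control replicate 1 the LF means were 0.0217 CPM for Aqp7 and 4.66 CPM for Fabp4, and without HF control replicate 1 the HF mean of Aqp7 was 0.125 CPM. These comparisons share their LF libraries and are given side by side only.

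Whether the diet effect differed between groups was tested directly. Between the sexes, the HFCF against HF change of controls differed by -0.93 ± 0.32 for Fabp4, -0.64 ± 0.88 for Aqp7 and -0.81 ± 1.12 for Cfd (log2, male minus female, SE). None was called (adjusted p = 0.220, 0.733 and 0.733, edgeR), where 0.00646% of genes were called, that is 1 gene, and 1699 without female HF control replicate 1. Without female HF control replicate 1, Aqp7 (adjusted p = 0.0421, edgeR) and Fabp4 (adjusted p = 0.0325) were. Aqp7 then passed the low-count filter only through the other groups. With every library kept, Cfd passed that filter only through the male groups, so its p-value adds nothing to the reads. Between female labelled knockouts and controls the interaction was -0.44 ± 0.60 for Fabp4 and 3.23 ± 1.58 for Aqp7, with 0% of 15445 genes called by edgeR, 667 at an unadjusted p under 0.05, and 0 by DESeq2.

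**Figure D2:**
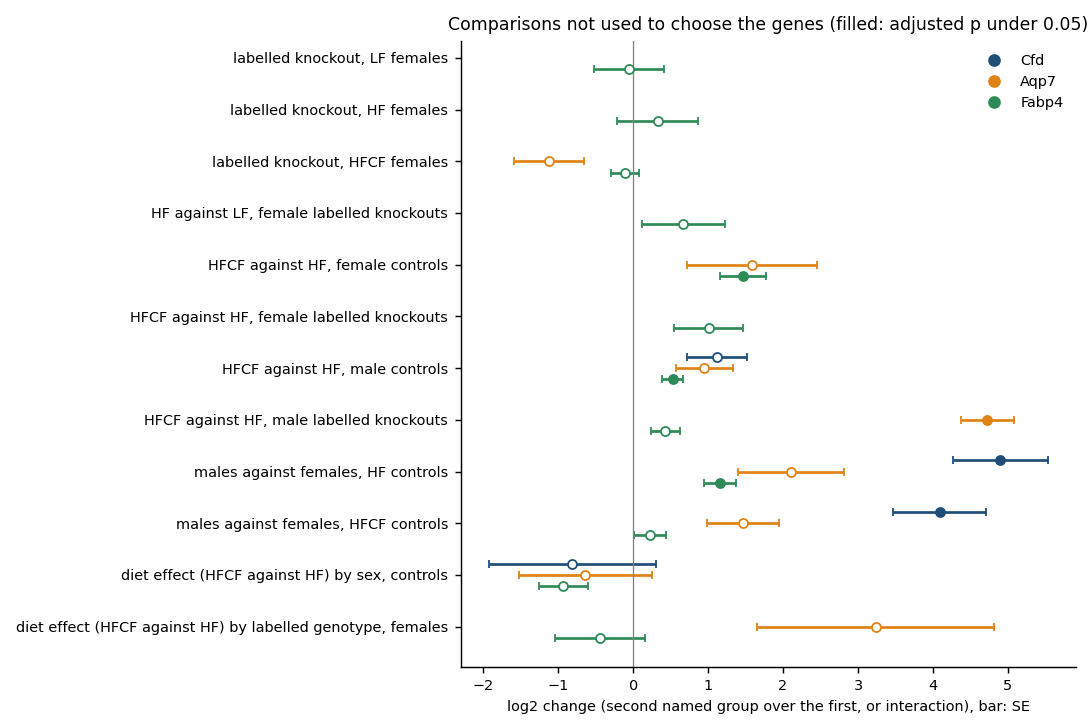
Log2 changes with their SE (bars) for Cfd, Aqp7 and Fabp4 in the comparisons that did not choose the genes, filled where the adjusted p was under 0.05. The filled points are Aqp7 between diets in male labelled knockouts, Cfd between the sexes on both diets, and Fabp4 between diets in controls and between the sexes on HF.

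Adig was at the edge of detection. Male HFCF controls held 2, 3, 0, 0, 8 and 3 reads, 16 in all, and their labelled knockouts 0 in all 6 libraries, a ratio of at least 5.31 at 3 reads over the group. Male HF controls held 12 reads in all against 2, a ratio of 5.30 (95% exact interval 1.18 to 48.7). Female HF controls held 10 reads against 2, and female HFCF livers 1 read in 8 libraries. Adig was therefore not detectable as a gene of the HFCF diet in females, and it passed the low-count filter in no comparison.

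Per length, the order of the genes changed. The authors' FPKM in male HFCF controls averaged 10.1 ± 6.26 for Cfd, 6.10 ± 1.62 for Fabp4, 2.16 ± 1.01 for Aqp7 and 0.174 ± 0.185 for Adig (SD, n = 6), and the first 2 overlapped. The deposited length of Fabp4 is 4489 bases, equal to its whole genomic span, while that of Cfd is 922 of 1803 bases and that of Aqp7 2828 of 15066. A length that takes in introns lowers the FPKM of Fabp4 against the others.

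Of the 8 adipocyte markers found, Adipoq, Plin1, Retn and Ucp1 were at or near 0 in the livers that held Cfd and Aqp7, while 4 others had reads in most libraries. Adipoq, which encodes adiponectin, had 5 reads over all 48 libraries and 0 in every male group. Plin1, which coats adipocyte droplets, had 4 reads in all, and Retn, which encodes resistin, had 10. In male HF controls these 3 genes held 1 read together, against 476 for Cfd and 344 for Aqp7. Over all 8, the summed CPM ran from 9.61 to 12.2 in male HF controls and 9.87 to 19.0 in their labelled knockouts, and from 16.1 to 28.1 in female LF controls; Adipoq, Retn and Ucp1 were at 0 in the first and Adipoq, Plin1, Retn and Ucp1 in the second. That sum rests mainly on Adrb3 and Slc2a4, with 8171 and 3358 reads in all; Tusc5 had 563 reads, and these 3 had reads in each of the 48 libraries. Acvr1c had 199 reads over 44 libraries.

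**Figure D3:**
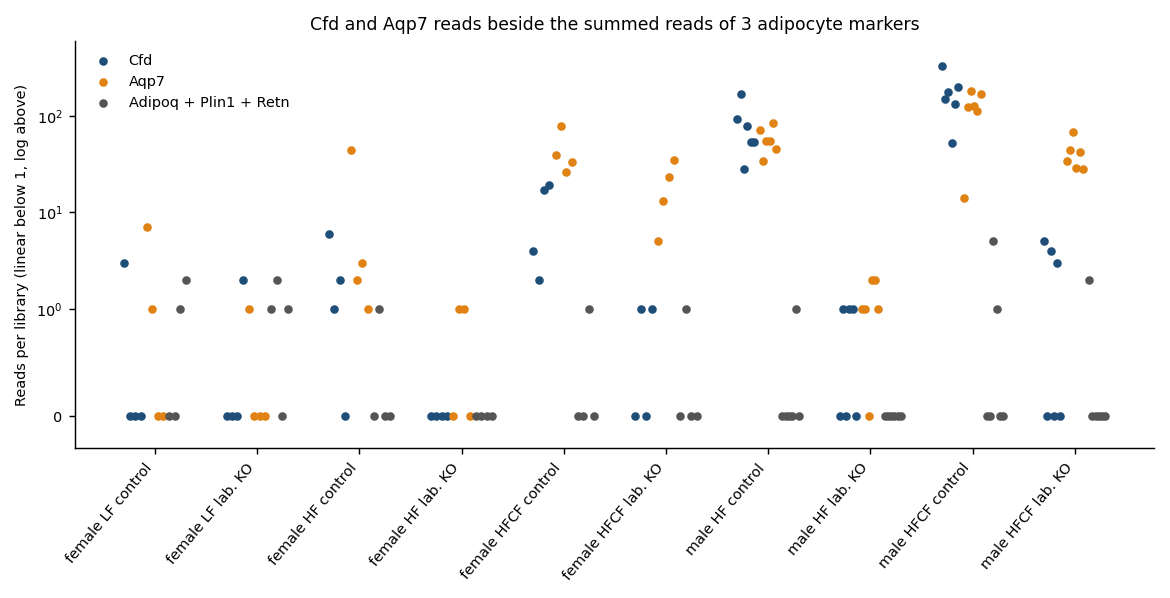
Reads per library of Cfd (blue), Aqp7 (orange) and the sum of Adipoq, Plin1 and Retn (grey) by group, linear below 1 and logarithmic above. The grey points stay at 5 reads or fewer in every library, including the male controls where Cfd reaches 326.

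Lipid droplet genes of liver were also lower in the male labelled knockouts. Cidea, a droplet fusion factor of brown fat and steatotic liver, averaged 20.4 ± 6.81 CPM in male HF controls and 0.310 ± 0.177 in their labelled knockouts. Female HF controls held 12, 0, 1 and 0 Cidea reads, nearly all of them in replicate 1. Of 18 lipid storage genes tested in HF males, 11 fell and 1 rose in the labelled knockouts (edgeR), where 18.5% of all genes were called. The list median was -0.82 against 0.00 over all genes. The largest falls were Cidea (-5.99 ± 0.36), Cidec (-4.68 ± 0.11), Plin4 (-3.90 ± 0.19) and Mogat1 (-2.79 ± 0.33). On HFCF 9 of 18 fell and 0 rose, where 2.21% of all genes were called. The list median was -0.33 against -0.01, and Cidea (-5.44 ± 0.33) and Plin4 (-2.89 ± 0.15) led the falls. Plin1 was at 0 reads in both male labelled knockout groups, and in all 6 female groups too. In female controls HF against LF raised 2 of the 17 lipid storage genes tested, Fitm1 (1.95 ± 0.32) and Plin4 (1.78 ± 0.31). In that comparison 0.696% of all genes were called. Neither gene passed without any 1 of the 4 LF controls or without HF control replicate 3.

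In female HFCF livers 3 of 17 lipid storage genes fell in the labelled knockouts, Cidec (-2.39 ± 0.33), Mogat1 (-1.64 ± 0.24) and Clstn3 (-1.44 ± 0.19), and none rose, where 0.0534% of all genes were called. These calls were fragile: Cidec kept its call in 1 of 8 fits that left out a library, Mogat1 and Clstn3 in 2 of 8, and none with a replicate block (adjusted p = 0.709, 0.722 and 0.384, edgeR). Between the sexes on HF, 7 of 18 were higher and 2 lower in male controls, where 18.1% of all genes were called. Cidea led with 6.64 ± 0.62. On HFCF, where 2.63% of all genes were called, only Cidea (5.03 ± 0.43) and Cidec (1.32 ± 0.13) of the list were, both higher in males. The median over the list was 0.25 on HF and 0.16 on HFCF, against 0.00 over all genes both times.

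The pathways in which the members act were read from the other genes of each, beside 18.5% of all genes called in HF male labelled knockouts (1204 higher, 1387 lower) and 22.3% called between the diets in male controls. In the alternative complement pathway, which adipsin feeds, 3 of 11 genes rose and none fell in HF male labelled knockouts: C3 (0.53 ± 0.11), the central component, Cfi (0.43 ± 0.09), an inhibitor, and Hc (0.36 ± 0.11), which encodes C5. With HFCF in male controls 2 rose and 4 fell. The risers were the anaphylatoxin receptors C3ar1 (1.25 ± 0.26) and C5ar1 (1.20 ± 0.21), and Cfb (-0.41 ± 0.13), the substrate of adipsin, fell.

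Of 10 genes of glycerol handling and lipolysis tested in HF males, 5 fell in the labelled knockouts and 0 rose (18.5% of all genes called), among them the glycerol phosphate dehydrogenases Gpd2 (-0.78 ± 0.10) and Gpd1 (-0.60 ± 0.07). On HFCF 3 of 10 fell (2.21% of all genes called). Among the other aquaporins 1 of 5 tested fell in HF male labelled knockouts, Aqp8 (-0.54 ± 0.16), a share near that of all genes, and on HFCF 1 rose, Aqp4 (1.27 ± 0.26). Aqp9, the main glycerol channel of hepatocytes, fell with HFCF in female controls (-0.63 ± 0.14), a call lost with a replicate block (adjusted p = 0.0984, edgeR). Among the other fatty acid binding proteins 0 of 4 changed with the labelled genotype in males on either diet by edgeR (1 on HF and 0 on HFCF at an unadjusted p under 0.05). With HFCF in male controls Fabp5, which macrophages and epithelia make, rose (1.18 ± 0.19), and Fabp1, the hepatocyte form, fell (-0.44 ± 0.13). Of 9 adipogenic regulators tested in HF males 4 rose and 1 fell in the labelled knockouts, the faller being Zfp423 (-1.42 ± 0.20), a zinc finger factor of preadipocytes.

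Markers of several cell types moved with the HFCF diet beside Fabp4 and Aqp7. The 12 macrophage markers summed to 399 to 593 CPM in male HF controls and 558 to 1371 in male HFCF controls, and to 310 to 674 and 1102 to 1545 CPM in the female controls. In male labelled knockouts the sum was 406 to 496 CPM on HF and 863 to 1414 on HFCF, where Aqp7 held 0 to 2 and 28 to 68 reads. The 12 endothelial markers summed to 295 to 412 CPM in female HF controls and 483 to 554 in female HFCF controls. In male controls they summed to 397 to 558 CPM on HF and 376 to 570 on HFCF. Of the 12, 9 were called higher in female controls (30.8% of all genes called) and 1 in male controls (22.3%). The 8 stellate cell markers summed to 254 to 734 CPM in female HF controls and 677 to 1014 in female HFCF controls, and to 375 to 507 and 549 to 850 CPM in the male labelled knockouts. In male controls the stellate sums overlapped, at 467 to 669 CPM on HF and 510 to 903 on HFCF. That overlap came from HFCF control replicate 1 alone, at 510 CPM, with the others at 796 to 903. The macrophage sum of that library, 558 CPM, also lay within the HF control range. Of the 8 stellate markers, 5 were called higher in male controls (22.3% of all genes called) and 3 in female controls (30.8%). Hepatocyte markers went the other way, but not with calls in every group. With HFCF 7 of 8 fell in female controls (30.8% of all genes called, edgeR) and 7 of 8 in male labelled knockouts (41.7%). In male controls 5 of 8 fell (22.3%). In female labelled knockouts 0 of 8 were called (14.5% of all genes called), and 5 had an unadjusted p under 0.05 (edgeR). The list median there was -0.41 (log2). No macrophage or endothelial marker was at 0 in any group. The part of these cell types in the rise of Fabp4 and Aqp7 was not tested.

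**Figure D4:**
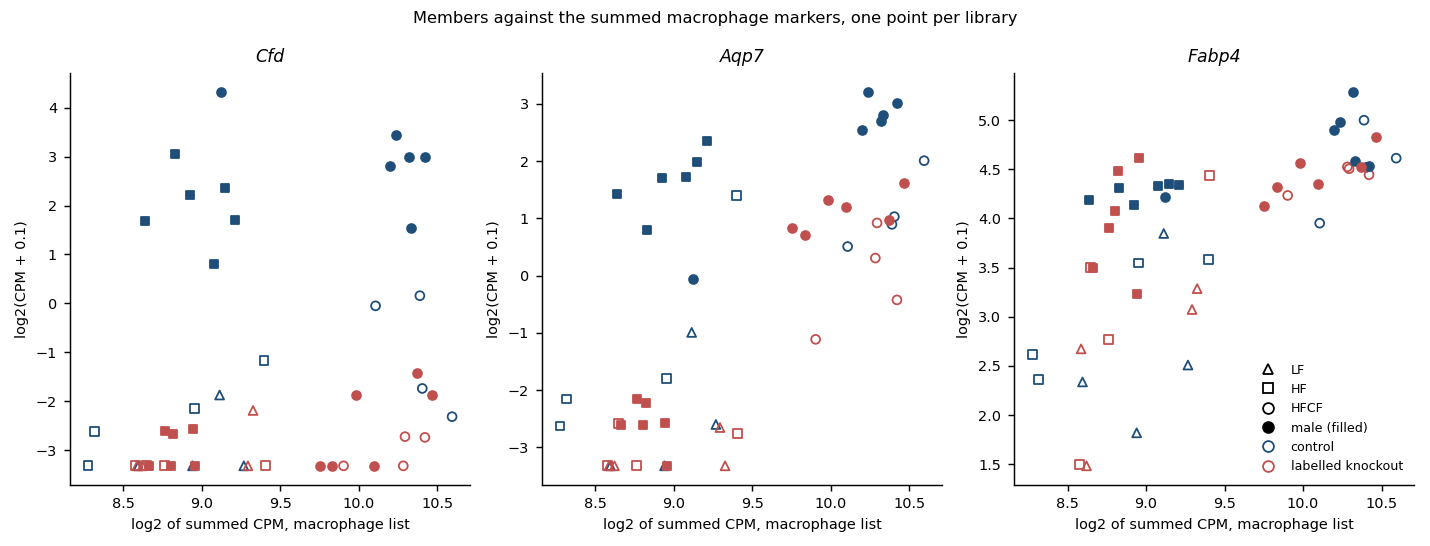
Each library's level of Cfd, Aqp7 and Fabp4 as log2(CPM + 0.1) against log2 of its summed macrophage markers, with triangles for LF, squares for HF, circles for HFCF, filled points for males and red for labelled knockouts. Male control Cfd is high at low and high macrophage sums alike, while the lowest Fabp4 values lie at low sums.

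Within groups the genes were only partly correlated. After each group's mean was taken off, Aqp7 and Fabp4 correlated at r = 0.45 (rho = 0.51) over 48 libraries, and at 0.43 without the 2 libraries farthest from the median. Cfd correlated with Aqp7 at r = 0.08 (rho = 0.15) and with Fabp4 at r = 0.24 (rho = 0.33). Aqp7 correlated with the macrophage sum at r = 0.72 (rho = 0.63; 0.56 without 2 libraries) and Fabp4 at r = 0.59 (rho = 0.61; 0.55). With the stellate cell sum Aqp7 correlated at r = 0.75 (rho = 0.64; 0.61) and Fabp4 at 0.49 (rho = 0.50; 0.57), and with the hepatocyte sum Aqp7 at -0.44 (rho = -0.34; -0.32). Cfd correlated with the macrophage sum at r = 0.09 (rho = 0.20, and 0.33 without 2 libraries). With Cidea it correlated at 0.46 (rho = 0.48, and 0.47 without 2). Cfd correlated with Cidec at 0.38 (rho = 0.36), and Aqp7 with Cidea at 0.47 (rho = 0.39) and Cidec at 0.61 (rho = 0.55). With a pseudocount of 1 CPM, Cfd correlated at r = 0.10 with Cidec, 0.45 with Cidea and -0.24 with the macrophage sum. Aqp7 then correlated at 0.31 with Cidea and 0.52 with Cidec. Fabp4 correlated with Cidea at 0.27 (rho = 0.32), Cidec at 0.25 (rho = 0.31) and the endothelial sum at 0.47 (rho = 0.40). The points share libraries and depth, many Cfd and Aqp7 values are at or near 0 reads, and the values are descriptions.

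Over the 10 group means, the genes whose pattern was most like Cfd among 12368 ranked were Sdcbp2 (r = 0.97), Cmas (0.97), Cidea (0.96), Tbc1d20 (0.96) and Zfp655 (0.96). For Aqp7 they were Llgl1 (0.99), Uap1l1 (0.98), Igsf11 (0.98), Acyp2 (0.98) and Shc2 (0.97). For Fabp4 they were Esco2 (0.98), Tusc3 (0.98), Zfp518b (0.98), Dck (0.98) and Ccr1 (0.97). For Adig, which rests on few reads, they included Tmem134 (0.90), Traf4 (0.88), Pcx (0.85) and Abcc3 (0.85). Between the members the same measure was 0.80 for Cfd and Aqp7, 0.79 for Aqp7 and Fabp4, and 0.57 for Cfd and Fabp4.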

How the data were processed

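RNA-seq counts of 48 mouse livers came from 11 deposited tables, 1 per comparison. Per the file headers, the authors deposited raw read counts, a normalised signal, FPKM, log2 fold changes and p-values. The submitters' processing notes list STAR 2.6.1, HTSeq 0.6.1 and DESeq2, and the builds GRCm38 and mm10, without roles; per the labels, libraries were not strand specific. Counts were joined by gene: 0 of 1341082 repeated values differed, 0 count columns lacked a sample, and a gene missing from a table was set to 0. The authors' normalised signal was the count over 1 factor per library and served for that check only. The authors' log2 fold changes and p-values were not used.

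CPM used TMM factors (0.883 to 1.18). Each comparison was fitted to its own groups in edgeR 4.0.16 (R 4.3.3): filterByExpr, quasi-likelihood F test, Benjamini-Hochberg over all genes, called under an adjusted p of 0.05. The scripts were tested on simulated counts. Intervals are exact Poisson or binomial at 95%; a group at 0 was bounded at 3 reads. Correlations used log2(CPM + 0.1). Alternatives were DESeq2 1.42.0 size factors and Wald test, no low-count filter, a filter at a mean of 1 CPM, 1 fit of all groups, the replicate number as a block, and each replicate left out. List genes named are up to 4 called ones of largest change per list and comparison, shortened here to those described; gene neighbours and genes of like pattern (mean of at least 1 CPM) follow fixed rules, and Gpnmb, Elane and single libraries were singled out after their values were seen. Members and lists were chosen with earlier results of these data known. Replicate numbers did not pair the samples. The symbols Gyk, Fabp6, Pmp2, Fabp9, Aqp6, Lep and Trarg1 were not found among the joined genes, so no gene was analysed under them. A gene of like pattern to Adig is not reported here.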

Additional observations from a re-analysis of the deposited data

Results flagged for a closer look

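In each group of 4 or 6 livers, the highest or lowest CPM of a member was compared with the rest of its group, and 10 values stood apart over 37 combinations of gene and group with any read. Chance alone marks about 1 group in 20 of continuous values, but that rate does not hold here, because a lone read in a group otherwise at 0 always stands apart. The library that stood apart most clearly was female HF control replicate 1, with Aqp7 at 2.54 CPM (44 reads) against 1 to 3 reads in the others. Female LF control replicate 1 stood apart in 3 members, with Aqp7 at 0.403 CPM (7 reads), Cfd at 0.173 CPM (3 reads) and Adig at 0.173 CPM (3 reads). The remaining cases rest on 1 or 2 reads in a group that was otherwise at 0, and so do the Cfd and Adig values just given, on 3 reads. They are Cfd at 0.119 CPM in female LF labelled knockout replicate 4, Aqp7 at 0.0590 CPM in female LF labelled knockout replicate 1, and Adig at 0.0613 CPM in female LF labelled knockout replicate 3. Adig also reached 0.107 CPM in female HF labelled knockout replicate 1, 0.0499 CPM in female HFCF control replicate 1 and 0.125 CPM in male HF labelled knockout replicate 3.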

How the results depend on the processing

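The number of members called was 1 for HFCF against HF in female controls, and became 2 with all groups in one fit and 0 with the replicate block. It was 0 in female labelled knockouts, and became 1 without a low-count filter and 2 in one fit. Aqp7 failed the filter in the main fit, and in the one fit the filter took in all groups. Its calls there rest on 76 reads on HFCF against 2 on HF. In male controls it was 1, and became 2 without the filter and 0 in one fit. In male labelled knockouts it was 1, and became 2 with the replicate block. Between the sexes on HFCF it was 1, and became 2 with DESeq2's Wald test. With each replicate left out these counts ran from 1 to 2, 0 to 2, 1 to 2, 1 to 2 and 1 to 2, and the interaction with sex from 0 to 2. List genes called in HF against LF female controls numbered 2, with 0 to 2 on leaving out a replicate, 7 by Wald and 4 without the filter; HFCF against LF gave 27, and 16 with the replicate block. The direction of Fabp4 reversed, without a call, for the labelled knockout in LF females (0.0159 with the replicate block; -0.29 to 0.56 without 1 replicate), HF females (-0.32 to 0.64) and HFCF females (0.0634 with the block; -0.27 to 0.0732), and for its interaction with labelled genotype (0.0406 with the block; -0.76 to 0.19). The cause was not tested. With a pseudocount of 1 CPM the correlations were -0.39 for Cfd and Aqp7, 0.0395 for Cfd and Fabp4, -0.0259 for Cfd and Adig and 0.33 for Aqp7 and Fabp4; without the LF groups Cfd and Fabp4 gave 0.11. Same-numbered replicates did not deviate together in every pair. Depth limits Adig throughout and Cfd and Aqp7 in LF and HF females, where a group holds 0 to 50 reads.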
